A study of Mus musculus with 17 samples.

Results

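Skin of C57/BL6j mice that had been given ionizing radiation was compared with skin of control mice, both taken 3 days after injury. The irradiated group held 3 libraries (replicates 1, 2 and 3) and the control group 2 libraries (replicates 1 and 3). These are 5 of the 17 libraries and 2 of the 7 groups of a study whose title concerns TGF-β1 and wound healing after radiation, with further irradiated and control groups at days 6 and 9 and control skin at day 0. All mice carried the same strain label and all tissue was skin; a radiation dose and the kind of wound are not given in the labels used here. The labels also do not say whether the libraries of a group came from separate animals, so p-values measure the spread between these samples, which may be technical. Each value is an FPKM, the number of sequenced fragments of a gene scaled by its length and by the fragments assigned in that library. A gene was tested when it reached 1 FPKM in at least 2 of the 5 libraries, which 13890 of the 34140 genes did. Just inside this limit were Cep295nl and Gm23802, whose second-highest value was 1.0011 FPKM, and just outside it were Rdh16 at 0.9999 and Klf12 at 0.9994 FPKM.

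The 5 libraries held 29278323 to 30797408 assigned fragments. Mitochondrially encoded genes took 8.69% to 9.28% of summed FPKM in the irradiated libraries, against 9.99% and 12.6% in the control libraries. The tissue label was borne out by its markers. Krt14, a keratin of basal keratinocytes, had 10181, 7247 and 9263 FPKM in irradiated and 10734 and 10611 FPKM in control skin. Col1a1, the main collagen gene of the dermis, had 658, 1059 and 638 FPKM in irradiated libraries, against 669 and 316 FPKM in control libraries, and Pecam1, a marker of vessel lining cells, had 31.7, 23.9 and 31.8 FPKM in irradiated and 34.3 and 34.1 FPKM in control skin. Changes are log2 fold changes of FPKM + 1, irradiated minus control, with a standard error (SE) from a limma fit to all 17 libraries. This scale understates the change of genes near or below 1 FPKM. Gene positions are those of build GRCm38 (mm10). A gene rose or fell where its adjusted p, over all 13890 genes, was under 0.05.

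Ionizing radiation breaks DNA, and the kinase ATM passes the damage signal to p53, a transcription factor that halts the cell cycle, aids repair and can start cell death. Type I interferons are secreted alarm proteins made when sensors detect nucleic acids of viruses, or the cell's own DNA and RNA out of place. They act through a receptor, JAK kinases and STAT and IRF factors, which switch on a large set of antiviral genes through a short promoter motif. In a healing skin wound, keratinocytes, fibroblasts, vessels and incoming immune cells all contribute RNA to the tissue.

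Genes of the interferon response and part of the p53 targets rose in irradiated skin at day 3, and globin genes and a few cell cycle genes fell. Of the genes tested, 246 rose (1.77%) and 44 fell (0.317%), together 2.09%. These shares are the background of the list counts below. Changes of at least 1 on the log2 scale were seen in 155 of those that rose (1.12%) and 10 of those that fell (0.072%). Among the genes that rose were 219 protein-coding genes, 7 antisense RNA genes and 2 lincRNA genes. All irradiated libraries lay above all control libraries in 16.3% of tested genes and below them in 26.0%, and the median change of all tested genes was -0.05. A gene can enter the test through 1 group alone: 236 genes reached 1 FPKM only in irradiated libraries, of which 30 rose, and 86 only in control libraries, of which 8 fell. These are whole-tissue values, in which fewer cells of a type and less RNA per cell cannot be told apart. The number of calls rested on the control libraries: without control replicate 3 only 30 genes passed (25 rose, 5 fell), and without control replicate 1 139 passed (128 rose, 11 fell). It was 168 and 167 without irradiated replicates 1 and 2, and 88 with a replicate block. Still, 28 genes passed without each of the 5 libraries in turn, 23 that rose and 5 that fell.

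**Figure D1:**
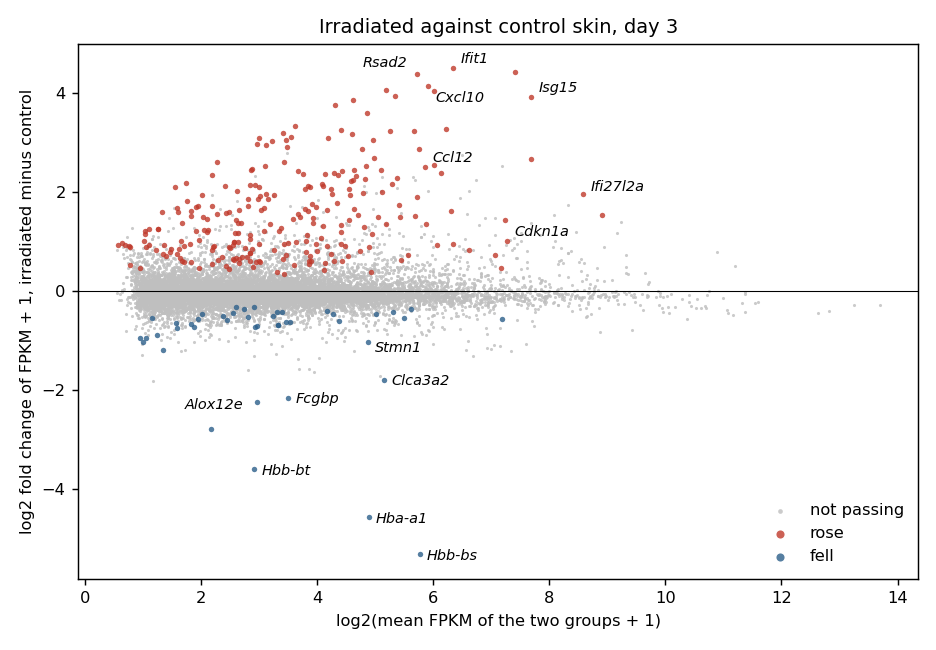
Each point is a gene tested at day 3, with its mean level in both groups on the horizontal axis (log2 of FPKM + 1) and its log2 fold change, irradiated minus control, on the vertical axis; coloured points passed the limma test. The 246 genes that rose, led by Ifit1 at 4.49, reach further above 0 than most of the 44 that fell, while the globin genes Hbb-bs and Hba-a1 lie lowest.

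Antiviral effectors held the single largest rises, Ifit1, Ifit3 and Rsad2, although the medians of the next 2 lists were slightly higher. They are proteins that block virus entry, translation or replication inside cells. Of 38 such genes 37 were tested, 3 of them through the irradiated libraries alone, and 33 rose and none fell, with a median change of 2.16. Lists can share members: Usp18 was also counted among the receptor and JAK-STAT genes below, and Zbp1 among the sensors. Ifit1 (ENSMUSG00000034459, chromosome 19, 34640871 to 34650009) encodes a protein that holds back translation of foreign RNA. It had 174, 170.2 and 118 FPKM in irradiated libraries, against 9.39 and 3.44 FPKM in control libraries, and rose by 4.49 (SE 0.59, adjusted p 0.00256). Every irradiated library lay far above both control libraries. Its neighbour Ifit3 (ENSMUSG00000074896, chromosome 19, 34583531 to 34588731), a partner of Ifit1, had 413, 326 and 235 FPKM in irradiated and 21.5 and 8.89 FPKM in control skin (log2 fold change 4.41, SE 0.63, adjusted p 0.00403); reads may be shared with its near-identical copy Ifit3b, so the split between them is uncertain. Rsad2 (ENSMUSG00000020641, chromosome 12, 26442746 to 26456452), the gene of viperin, which makes a chain-ending nucleotide, had 129, 98.1 and 69.3 FPKM in irradiated libraries, against 6.79 and 1.78 FPKM in control libraries (log2 fold change 4.38, SE 0.66, adjusted p 0.00429). For these genes control replicate 1 was higher than control replicate 3, and both stayed well under the irradiated libraries. Isg15 (ENSMUSG00000035692, chromosome 4, 156199424 to 156200818), a ubiquitin-like protein joined to other proteins, was the most abundant of them, with 481, 412 and 259.6 FPKM in irradiated and 39.5 and 14.2 FPKM in control skin (log2 fold change 3.91, SE 0.69, adjusted p 0.00907). Mx1, a GTPase that traps viral particles, had 87, 78.4 and 57.6 FPKM in irradiated libraries, against 6.53 and 2.15 FPKM in control libraries (log2 fold change 3.93, SE 0.62, adjusted p 0.00519). The nucleotide kinase gene Cmpk2, a neighbour of Rsad2, had 61.9, 42.5 and 31.2 FPKM in irradiated and 3.06 and 1.3 FPKM in control skin (log2 fold change 3.86, SE 0.46, adjusted p 0.00169). Of the antiviral genes named here, only Cmpk2 passed under all 19 alternative analyses run.

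Other members rose by less. Bst2, which tethers virus particles to the cell surface, had 396, 436 and 231 FPKM in irradiated libraries, against 64 and 43.8 FPKM in control libraries (log2 fold change 2.67, SE 0.54, adjusted p 0.0214), and Ifi27l2a, a small membrane protein gene, had 628, 698 and 509.6 FPKM in irradiated and 159 and 153 FPKM in control skin (log2 fold change 1.95, SE 0.44, adjusted p 0.0425). Eif2ak2, the gene of the RNA-activated kinase PKR that halts translation, rose by 1.63 (adjusted p 0.00209), and the ubiquitin ligase gene Trim25 by 0.90 (adjusted p 0.0137). Ifitm3, which blocks entry from endosomes, was the most abundant gene of the list, with 924, 983 and 724 FPKM in irradiated libraries, against 339.5 and 323 FPKM in control libraries; its groups did not overlap, and its difference of 1.39 did not pass (adjusted p 0.0591). Summed over the list, the irradiated libraries held 4572, 4452 and 3128 FPKM, against 1001 and 807 FPKM in the control libraries. Without control replicate 3, 3 of the 37 genes passed, and of the 10 genes named as risen 1 did (adjusted p 0.0443 to 0.35). Without control replicate 1, 27 of the 37 passed, and with the replicate block 17.

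**Figure D2:**
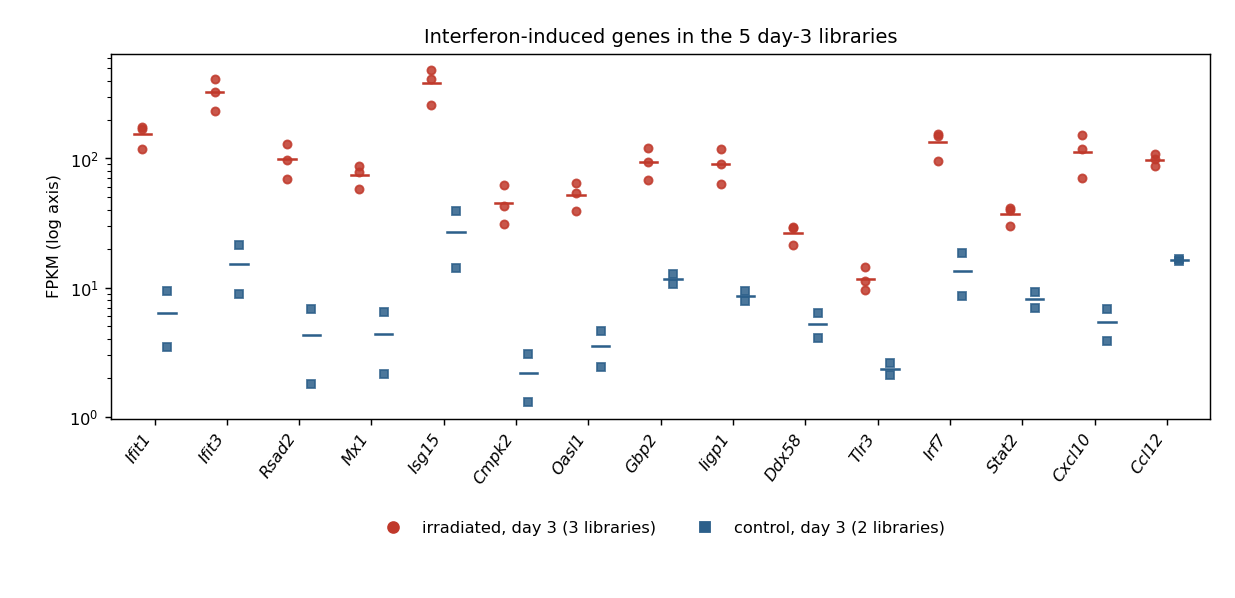
FPKM on a log axis of 15 interferon-induced genes in the 3 irradiated libraries (circles) and the 2 control libraries (squares) of day 3, with a bar at each group mean. In every gene shown the lowest irradiated library lies above the highest control library, and the controls lie close together for Ccl12, Iigp1 and Gbp2 and apart for Rsad2 and Mx1.

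The 2′-5′ oligoadenylate synthetases sense double-stranded RNA and make a small messenger that leads to the cutting of viral and cellular RNA. Of 10 of these genes tested, 6 rose, with a median of 2.27. Oasl1, a family member without synthetase activity, had 64.2, 54.2 and 39.3 FPKM in irradiated and 4.63 and 2.43 FPKM in control skin (log2 fold change 3.58, SE 0.46, adjusted p 0.00209). Oas3 (ENSMUSG00000032661, chromosome 5, 120753098 to 120777661) had 18.9, 22.4 and 14.6 FPKM in irradiated libraries, against 2.39 and 0.978 FPKM in control libraries (log2 fold change 2.90, SE 0.46, adjusted p 0.00489), and Oas1a had 62.4, 67.8 and 40.5 FPKM in irradiated and 11.4 and 7.69 FPKM in control skin (log2 fold change 2.44, SE 0.47, adjusted p 0.0149), in which reads may be split with the other copies of the Oas1 cluster. In these 3 genes the groups did not overlap.

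Guanylate-binding proteins and immunity-related GTPases coat the vacuoles of intracellular microbes. In this list 11 of 16 tested genes rose and none fell (4 were tested through the irradiated libraries alone), with a median of 2.31. Gbp2 (ENSMUSG00000028270, chromosome 3, 142620602 to 142638008) had 120.4, 93.9 and 68.3 FPKM in irradiated libraries, against 12.8 and 10.7 FPKM in control libraries (log2 fold change 2.87, SE 0.52, adjusted p 0.0103). Iigp1 (ENSMUSG00000054072, chromosome 18, 60376029 to 60392627), a GTPase best known in defence against Toxoplasma, had 119, 90.7 and 63.7 FPKM in irradiated and 7.81 and 9.34 FPKM in control skin (log2 fold change 3.22, SE 0.56, adjusted p 0.00907). Their 2 control values lay close together, unlike those of the Ifit genes. Gbp3 rose by 3.05, Igtp by 2.68 and Tgtp2 by 3.11; Tgtp2 and its copy Tgtp1 are near-identical, so their separate values are uncertain. Among the Schlafen genes, whose products restrict viral protein synthesis, 5 of 8 rose, with a median of 1.41. Slfn8 had 28.4, 33.3 and 23.1 FPKM in irradiated libraries, against 6.36 and 3.4 FPKM in control libraries (log2 fold change 2.35, SE 0.38, adjusted p 0.0055), and Slfn5 had 61.2, 68.9 and 56.5 FPKM in irradiated and 24.8 and 18.3 FPKM in control skin (log2 fold change 1.49, SE 0.25, adjusted p 0.00726). By contrast Slfn4, a gene of monocytes and neutrophils, had 143, 122 and 126 FPKM in irradiated libraries, against 70.0 and 17.2 FPKM in control libraries, without overlap but with the control libraries far apart, and did not pass (1.87, adjusted p 0.364). Without control replicate 3 none of the synthetase, GTPase or Schlafen genes passed in limma, and the adjusted p of the 10 named as risen here ran from 0.0606 to 0.244. Without control replicate 1, 4 synthetases, 3 GTPases and 4 Schlafen genes passed, and with the replicate block 3, 1 and 1.

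Many of the sensors that start an interferon response are themselves interferon-induced, and 12 of 24 sensor and adaptor genes rose (median 1.21). Ddx58 (ENSMUSG00000040296, chromosome 4, 40203773 to 40239828), the gene of the RNA sensor RIG-I, had 29.6, 29 and 21.2 FPKM in irradiated and 6.34 and 4.05 FPKM in control skin (log2 fold change 2.16, SE 0.29, adjusted p 0.00292). Ifih1, the gene of the long-RNA sensor MDA5, had 23.6, 23.2 and 16.9 FPKM in irradiated libraries, against 5.23 and 3.56 FPKM in control libraries (log2 fold change 2.05, SE 0.30, adjusted p 0.00426). Tlr3 (ENSMUSG00000031639, chromosome 8, 45395665 to 45411080), an endosomal receptor of double-stranded RNA, had 14.4, 11.2 and 9.62 FPKM in irradiated and 2.61 and 2.1 FPKM in control skin (log2 fold change 1.92, SE 0.19, adjusted p 0.00109), and it passed under all 19 alternatives. For these RNA sensors every irradiated library lay well clear of both controls. Zbp1, which binds Z-form nucleic acid and can start necroptosis, had 50.7, 54 and 35.7 FPKM in irradiated libraries, against 7.13 and 4.19 FPKM in control libraries (log2 fold change 2.86, SE 0.54, adjusted p 0.0137), and Ifi204, a DNA-binding protein gene of the Ifi200 family, had 118, 133 and 99.1 FPKM in irradiated and 27.1 and 16.9 FPKM in control skin (log2 fold change 2.38, SE 0.38, adjusted p 0.00519). Mb21d1, the gene of the cytosolic DNA sensor cGAS, had 3.48, 3.62 and 3.54 FPKM in irradiated libraries, against 2.52 and 2.1 FPKM in control libraries (log2 fold change 0.46, SE 0.10, adjusted p 0.027), a smaller rise. Its adaptor Tmem173, the gene of STING, had 19, 19.1 and 20.4 FPKM in irradiated and 19 and 15.5 FPKM in control skin, and its groups overlapped (0.18, adjusted p 0.895).

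None of the interferon genes themselves reached the level needed for the test. The 14 interferon genes measured had at most 1.43 FPKM in any library. Ifnb1, the gene of interferon beta, had 1.43, 0.501 and 0.41 FPKM in irradiated libraries, against 0 and 0 FPKM in control libraries, so it is listed at 0 in both controls. Ifnk, an interferon gene of keratinocytes, had 1.13, 0.297 and 0.212 FPKM in irradiated and 0.0846 and 0.0419 FPKM in control skin, and Ifng, the interferon of T and NK cells, had 0.125, 0.0791 and 0.0264 FPKM in irradiated libraries, against 0 and 0 FPKM in control libraries. Ifna4 had 0.695, 0.365 and 0.244 FPKM in irradiated and 0 and 0 FPKM in control skin. These low values are given with no fold change and no test. Downstream of the receptor, 5 of 20 receptor, JAK-STAT and interferon regulatory factor genes rose (median 0.30), among them Irf7, Usp18, Stat2 and Irf9. Irf7 (ENSMUSG00000025498, chromosome 7, 141262706 to 141266481), the factor that amplifies interferon production, had 149, 156 and 95.2 FPKM in irradiated libraries, against 18.5 and 8.61 FPKM in control libraries (log2 fold change 3.26, SE 0.60, adjusted p 0.0127). Stat2, a signal-carrying factor, had 39.9, 41.1 and 30.2 FPKM in irradiated and 9.32 and 6.93 FPKM in control skin (log2 fold change 2.06, SE 0.32, adjusted p 0.00465). Both were higher in every irradiated library. Irf9, the DNA-binding partner of Stat2, rose by 1.01 (adjusted p 0.0189), and Usp18, which removes Isg15 and dampens the receptor, by 3.24 (adjusted p 0.0039). The receptor gene Ifnar1 had 12, 17.9 and 15 FPKM in irradiated libraries, against 14.3 and 11.7 FPKM in control libraries (0.19, adjusted p 0.812) and Irf3, the factor present before any signal, had 9.33, 9.68 and 9.97 FPKM in irradiated and 11 and 11.3 FPKM in control skin (-0.19, adjusted p 0.436). The groups overlapped for Ifnar1 and not for Irf3, and neither passed. Dhx58, a regulator of the RNA sensors, rose by 2.36 (adjusted p 0.00416). Without control replicate 3, 1 of 24 sensor genes and none of 20 receptor and JAK-STAT genes passed in limma, and of the 11 genes named as risen in both lists 1 did (adjusted p 0.0361 to 0.412).

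STAT2 and IRF9 take part in binding the interferon-stimulated response element, whose core, a pair of GAAA blocks with any 2 bases between them, was searched on both strands in the RefSeq promoters of build GRCm38.p6, from 250 bases before to 50 bases after the start of each gene. It was found in 58 of the 178 risen genes with a promoter in that RefSeq set (32.6%). The core was also in 1 of the 31 fallen genes (3.23%) and in 1079 of all 27025 genes with a promoter there (3.99%). By list it was present in 15 of 29 antiviral genes (51.7%), 9 of 10 GTPase genes (90.0%), 4 of 7 oligoadenylate synthetase genes (57.1%), 3 of 7 Schlafen genes (42.9%) and 7 of 17 sensor genes (41.2%). A match is a description of letters in these windows and not a measured binding site. The windows below show the motif in 5 of the genes that rose, read on the strand of the gene, with the core in capitals. In Ifit1 (chr19:34640760-34640838, plus strand) and Gbp2 (chr3:142620579-142620638, plus strand) it lies on the other strand and so reads as its reverse complement. It reads directly in Isg15 (chr4:156200850-156200921, minus strand), where 3 overlapping matches form a run, in Oas1a (chr5:120907505-120907570, minus strand), with 2 overlapping matches that end 4 bases before the start, and in Cxcl10 (chr5:92349068-92349127, minus strand).
Ifit1: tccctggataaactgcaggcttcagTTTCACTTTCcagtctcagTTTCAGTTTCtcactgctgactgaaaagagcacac
Gbp2: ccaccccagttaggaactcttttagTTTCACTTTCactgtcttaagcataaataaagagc
Isg15: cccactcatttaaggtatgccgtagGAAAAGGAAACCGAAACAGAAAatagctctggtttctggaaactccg
Oas1a: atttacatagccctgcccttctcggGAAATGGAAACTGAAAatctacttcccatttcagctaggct
Cxcl10: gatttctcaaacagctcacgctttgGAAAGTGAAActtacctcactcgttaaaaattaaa

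Of the 246 risen genes 106 (43.1%) lay within 100 kb of another risen gene, against 803 of all 13890 tested genes (5.78%). The Ifit genes Ifit1, Ifit2, Ifit3, Ifit3b, Ifit1bl1 and Ifit1bl2 rose on chromosome 19 between 34550694 and 34650009, where all 6 tested genes rose. The Ifi200 family, cytosolic and nuclear DNA-binding proteins, lies on chromosome 1 between 173468485 and 173942672, and 10 of the 11 tested genes in this span rose. One member, Ifi206, had 23.9, 25.3 and 15.1 FPKM in irradiated libraries, against 2.1 and 0.563 FPKM in control libraries (log2 fold change 3.32, SE 0.51, adjusted p 0.00451). Between 104244457 and 104507849 on chromosome 7, 8 of 11 tested genes rose, among them Trim30a, Trim30c, Trim12a and Trim34a, ubiquitin ligase genes. The Phf11 genes on chromosome 14, between 59244441 and 59440884, rose with the neighbouring Setdb2, 6 of 6 in the span. Phf11b had 81.2, 80.1 and 42.8 FPKM in irradiated and 8.85 and 4.07 FPKM in control skin (log2 fold change 3.23, SE 0.65, adjusted p 0.022). Families and genes of these clusters, Phf11b and Ifi206 excepted, were chosen after their values were seen; copies within a cluster are alike in sequence and can share reads, so the values of single copies are uncertain.

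Class I molecules show peptides to CD8+ T cells, and 4 of 22 class I and immunoproteasome genes rose (median 0.85). Of all tested genes 1.77% rose. H2-T24, a nonclassical class I gene, had 20.7, 28.3 and 18.1 FPKM in irradiated libraries, against 4.84 and 3.86 FPKM in control libraries (log2 fold change 2.11, SE 0.32, adjusted p 0.00451). Its relatives H2-T22 and H2-T23 rose by 1.51 and 1.35, and the immunoproteasome subunit gene Psmb10 by 1.35 (adjusted p 0.00985). The peptide transporter gene Tap1 had 36.6, 34.4 and 24.5 FPKM in irradiated and 12.3 and 11.4 FPKM in control skin, without overlap, and did not pass (1.34, adjusted p 0.0639). B2m, the light chain of class I, had 2374, 2744 and 2071 FPKM in irradiated libraries, against 1429 and 1330.0 FPKM in control libraries (0.79, adjusted p 0.176). Class II genes, expressed by dendritic cells, macrophages and B cells, showed lower values in all irradiated libraries in each of the 8 genes tested, with a median of -1.0. Among them Ciita was tested through the control libraries alone, so its lower place followed from the filter. Such a position below both controls was seen in 26.0% of all tested genes. No class II gene passed in limma (0 by limma-voom, 7 with an unadjusted p under 0.05). H2-Aa (ENSMUSG00000036594, chromosome 17, 34282744 to 34287827) had 58.5, 59.2 and 54.7 FPKM in irradiated and 174 and 119 FPKM in control skin (-1.31, SE 0.38, adjusted p 0.119), and Cd74, the invariant chain gene, had 101, 95.6 and 88.4 FPKM in irradiated libraries, against 278 and 176 FPKM in control libraries (-1.21, adjusted p 0.175). All irradiated values lay below both controls, and the controls differed among themselves. In a fit of the 5 day-3 libraries alone 5 of the 8 fell, and with array quality weights 7 did. Without control replicate 3 none of the class I genes passed in limma (adjusted p 0.111 to 0.193 for the 4 that rose), and without control replicate 1 1 did.

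Among chemokines and their receptors the calls were few. Ccl12 (ENSMUSG00000035352, chromosome 11, 82101845 to 82103400), which draws monocytes through Ccr2, had 87, 108 and 98.3 FPKM in irradiated and 16.7 and 16.1 FPKM in control skin (log2 fold change 2.50, SE 0.30, adjusted p 0.00194) and passed under all 19 alternatives. Of 17 monocyte chemokine and receptor genes it alone passed (median 1.04), where 1.77% of all tested genes rose. Ccl2 had 197, 151 and 119.9 FPKM in irradiated libraries, against 26.1 and 18.3 FPKM in control libraries (2.75, adjusted p 0.0745) and Ccl7 had 283, 253 and 209.6 FPKM in irradiated and 49.4 and 35.2 FPKM in control skin (2.53, adjusted p 0.0631), both without overlap and neither passing. Ccr2, the receptor for these ligands, had 4.63, 7.51 and 6.34 FPKM in irradiated libraries, against 26.6 and 15.1 FPKM in control libraries (-1.58, adjusted p 0.231), again without overlap and in the other direction. Cxcl10 (ENSMUSG00000034855, chromosome 5, 92346638 to 92348889), an interferon-induced attractant of T cells, had 151, 118 and 70.5 FPKM in irradiated and 6.86 and 3.88 FPKM in control skin (log2 fold change 4.14, SE 0.73, adjusted p 0.00915), and its relative Cxcl9 had 28.2, 21.7 and 6.72 FPKM in irradiated libraries, against 1.38 and 1.6 FPKM in control libraries (2.79, adjusted p 0.141). Both were higher in all irradiated libraries. None of 21 neutrophil chemokines and markers passed in limma (0 by limma-voom, 0 with an unadjusted p under 0.05), and S100a8, the calprotectin subunit gene, had 607, 443 and 652 FPKM in irradiated and 701 and 441 FPKM in control skin, with overlapping groups. Il1b, the fever cytokine gene, also overlapped, with 173, 103 and 233 FPKM in irradiated libraries, against 282 and 108 FPKM in control libraries. Il18bp, a secreted decoy of interleukin 18, rose by 1.96 (adjusted p 0.0076), and Tnfsf10, the gene of the death ligand TRAIL, by 1.38 (adjusted p 0.00736).

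Cell type markers moved less uniformly. Of 31 macrophage and monocyte markers 2 rose, Fcgr1 and Marco, with a median of 0.58 and all irradiated libraries above all controls in 17 of the 31. Over all tested genes 1.77% rose, and this position above both controls was seen in 16.3%. Fcgr1, an interferon-induced receptor of antibodies, had 83.3, 96.7 and 64.8 FPKM in irradiated and 28.1 and 15.6 FPKM in control skin (log2 fold change 1.89, SE 0.42, adjusted p 0.0392). The scavenger receptor gene Marco had 3.41, 8.28 and 1.86 FPKM in irradiated libraries, against 0.583 and 0.596 FPKM in control libraries (log2 fold change 1.62, SE 0.36, adjusted p 0.0384), with irradiated replicate 2 highest; it was tested through the irradiated libraries alone. Adgre1, the F4/80 gene, had 29, 46.3 and 35.3 FPKM in irradiated and 31.7 and 22.5 FPKM in control skin, and its groups overlapped (0.42, adjusted p 0.781). Summed levels of this list were 1779, 3542 and 2264 FPKM in irradiated libraries and 2119.9 and 1535 FPKM in control libraries. The groups' sums overlapped, and the part of macrophage number in the other results was not tested. Complement genes, made by macrophages and fibroblasts, had a median of 0.78 with 17 of 20 without overlap and higher, and none passed in limma (0 by limma-voom, 5 with an unadjusted p under 0.05). Of 12 tested T, NK and B cell markers only Cd7, a T and NK cell surface protein gene, passed, with 0.659, 0.573 and 0.723 FPKM in irradiated libraries, against 2.34 and 1.82 FPKM in control libraries (log2 fold change -0.89, SE 0.13, adjusted p 0.0039). Cd7 was tested through the control libraries alone. The NK receptor gene Klrd1 had 0.963, 0.986 and 0.987 FPKM in irradiated and 3.75 and 2.45 FPKM in control skin (-1.03, adjusted p 0.0852). Klrd1 too was tested through the control libraries alone. Gzmb, the killer protease gene, had 9.93, 4.37 and 4.66 FPKM in irradiated libraries, against 1.19 and 0.493 FPKM in control libraries (1.94, adjusted p 0.127). Of the 7 chemokine, cytokine and marker genes named as passing here and among the chemokines, 2 passed without control replicate 3 (adjusted p 0.0443 to 0.5) and 3 without control replicate 1.

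p53 target genes rose in part. Of 26 targets that act in arrest, repair and feedback 8 rose and 1 fell (median 0.37), and of 14 death effector targets 4 rose (median 0.40). Over all tested genes 1.77% rose and 0.317% fell. Cdkn1a (ENSMUSG00000023067, chromosome 17, 29090979 to 29100722), the gene of the cell cycle inhibitor p21, had 204, 207 and 204 FPKM in irradiated and 114 and 90.5 FPKM in control skin (log2 fold change 1.01, SE 0.21, adjusted p 0.027). Its irradiated values were nearly equal and well above both controls, yet it no longer passed when any 1 of the 5 libraries was left out (adjusted p 0.0702 to 0.381). Ccng1 (ENSMUSG00000020326, chromosome 11, 40748552 to 40755311), cyclin G1, had 100.2, 119.9 and 97.6 FPKM in irradiated libraries, against 50.2 and 58.7 FPKM in control libraries (log2 fold change 0.95, SE 0.14, adjusted p 0.00411). Trp53inp1, which promotes p53-driven death and autophagy, had 19.3, 24.8 and 20.3 FPKM in irradiated and 6.27 and 7.83 FPKM in control skin (log2 fold change 1.48, SE 0.22, adjusted p 0.00438), and the sugar reductase gene Dcxr had 26.8, 31.7 and 27.2 FPKM in irradiated libraries, against 12 and 11.8 FPKM in control libraries (log2 fold change 1.19, SE 0.12, adjusted p 0.00109). These 4 genes separated the groups with little spread inside each. Zmat3, an RNA-binding protein gene, rose by 0.69, the damage-bypass polymerase gene Polk by 0.63, the microtubule regulator gene Psrc1 by 0.76, and the stress hormone gene Gdf15 by 0.92. Gdf15 reached 1 FPKM only in irradiated libraries, so it was tested through these alone. Polh, another damage-bypass polymerase gene, went the other way, with 7.58, 7.32 and 7.68 FPKM in irradiated and 10.2 and 10.6 FPKM in control skin (log2 fold change -0.42, SE 0.10, adjusted p 0.0453). Mdm2, the ubiquitin ligase that limits p53, had 21.5, 21.8 and 21 FPKM in irradiated libraries, against 12.7 and 13.1 FPKM in control libraries, without overlap, and its 0.69 did not pass (adjusted p 0.0666). Phlda3, which restrains AKT, had 99.1, 96.6 and 96.3 FPKM in irradiated and 73 and 78.9 FPKM in control skin (0.35, adjusted p 0.089), and the death receptor gene Eda2r had 7.77, 8.86 and 7.42 FPKM in irradiated libraries, against 5.03 and 8.38 FPKM in control libraries, with overlap. Without control replicate 3, 2 of the 26 arrest targets and 1 of the 14 death targets rose, and without control replicate 1, 3 and 4 did. With the replicate block 1 gene of each list rose.

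Among the death effectors, Bax, which opens the mitochondrial membrane, had 18, 20.7 and 20.4 FPKM in irradiated and 11.5 and 8.37 FPKM in control skin (log2 fold change 0.94, SE 0.17, adjusted p 0.00934). Bbc3, the gene of its activator PUMA, had 5.53, 7.31 and 6.24 FPKM in irradiated libraries, against 2.96 and 3.03 FPKM in control libraries (log2 fold change 0.87, SE 0.13, adjusted p 0.00403). Aen, an exonuclease gene of apoptosis, had 11.3, 10.5 and 11.7 FPKM in irradiated and 5.6 and 6.18 FPKM in control skin (log2 fold change 0.82, SE 0.09, adjusted p 0.00109) and passed under all 19 alternatives. Each of these was higher in every irradiated library. Bid rose by 0.56 (adjusted p 0.00907). Fas, a death receptor gene, had 10.6, 12.2 and 11.1 FPKM in irradiated libraries, against 7.56 and 5.81 FPKM in control libraries (0.68, adjusted p 0.312), and Pmaip1, the gene of NOXA, had 23.5, 17 and 21.8 FPKM in irradiated and 21.4 and 14.6 FPKM in control skin, with overlap (0.21, adjusted p 0.854). Of the 13 targets named as passing in both lists, 3 passed without control replicate 3 (adjusted p 0.023 to 0.413), 7 without control replicate 1 and 2 with the replicate block.

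**Figure D3:**
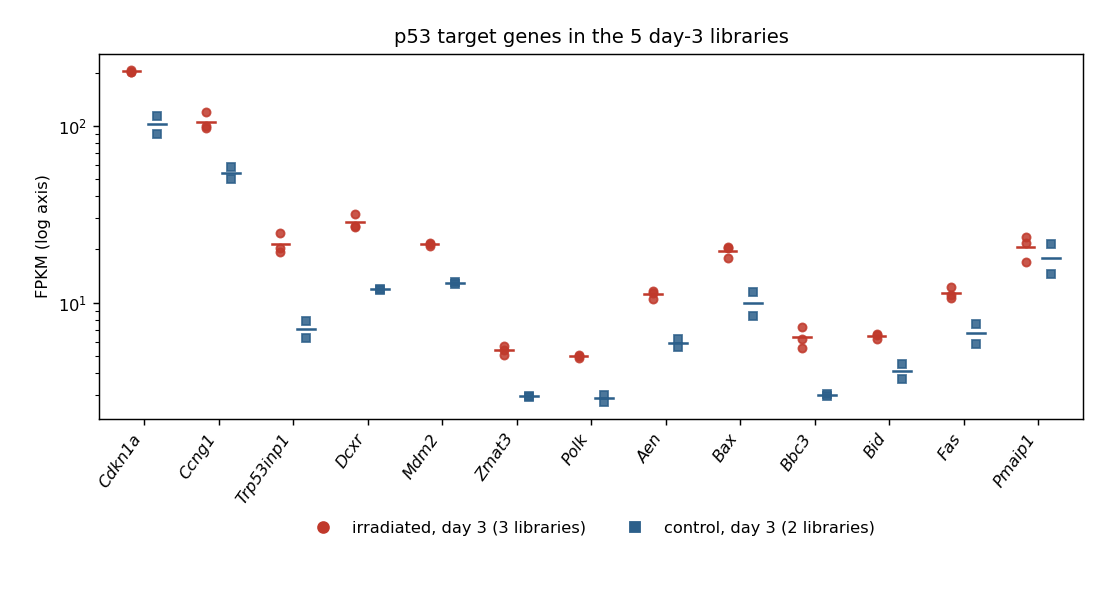
FPKM on a log axis of 13 p53 target genes in the 3 irradiated libraries (circles) and the 2 control libraries (squares) of day 3, with a bar at each group mean. Cdkn1a stands at 204 to 207 FPKM in irradiated libraries, against 90.5 and 114 in control libraries, and Pmaip1 is the gene whose groups overlap.

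Cell cycle genes were lower in irradiated skin by small amounts. In the mitosis list 5 of 67 genes fell and none rose (median -0.48), where 0.317% of all tested genes fell and 1.77% rose. All irradiated libraries lay below both controls in 66 of the 67, against 26.0% of all tested genes. Cenpa (ENSMUSG00000029177, chromosome 5, 30666777 to 30674830), the histone variant that marks centromeres, had 5.3, 4.45 and 4.56 FPKM in irradiated libraries, against 8.69 and 8.25 FPKM in control libraries (log2 fold change -0.72, SE 0.12, adjusted p 0.00683). Nusap1, which binds spindle microtubules, had 5.66, 4.53 and 4.6 FPKM in irradiated and 8.39 and 8.97 FPKM in control skin (log2 fold change -0.71, SE 0.15, adjusted p 0.0233), and Kif23, a motor of cell division, had 2.21, 2.04 and 2.12 FPKM in irradiated libraries, against 3.85 and 3.4 FPKM in control libraries (log2 fold change -0.57, SE 0.11, adjusted p 0.0204). The gap between groups was larger than the spread within them. Smc4, a condensin subunit gene, fell by 0.47 (adjusted p 0.0434) and the DNA glycosylase gene Neil3 by 0.55 (adjusted p 0.0422). Neil3 reached 1 FPKM only in control libraries. Mki67, the Ki-67 proliferation marker, had 13, 11.6 and 12.1 FPKM in irradiated and 22.3 and 22.4 FPKM in control skin (-0.82, SE 0.20, adjusted p 0.0562) and did not pass, nor did Plk1 (-0.67), Top2a (-0.61), Ccnb1 (-0.55) or Cdk1 (-0.47). Outside the list, Stmn1, which takes microtubules apart, had 20.6, 17.5 and 17.3 FPKM in irradiated libraries, against 38.1 and 38.7 FPKM in control libraries (log2 fold change -1.02, SE 0.22, adjusted p 0.0316), and Cdc25b, a phosphatase that opens mitosis, had 7.12, 6.03 and 6.83 FPKM in irradiated and 11.8 and 11 FPKM in control skin (log2 fold change -0.69, SE 0.15, adjusted p 0.0338). Of 40 DNA replication genes 1 fell, the thymidylate synthase gene Tyms, with 4.12, 3.86 and 4.05 FPKM in irradiated libraries, against 5.63 and 5.92 FPKM in control libraries (log2 fold change -0.44, SE 0.09, adjusted p 0.0237). The list had a median of -0.32 and 38 genes without overlap and lower. Among the 38, Dtl was tested through the control libraries alone, so its lower place followed from the filter. Pcna, the sliding clamp gene, had 59.9, 53.6 and 57.7 FPKM in irradiated and 62.5 and 65.8 FPKM in control skin (-0.17, adjusted p 0.51). Of 31 DNA damage sensing and repair genes Neil3, tested through the control libraries alone, was the only one to pass (median -0.15), and Atm had 2.59, 2.75 and 2.5 FPKM in irradiated libraries, against 2.26 and 2.53 FPKM in control libraries. The number of mitosis genes called depended on the fit: 32 fell in a fit of the 5 day-3 libraries alone, 51 fell and 1 rose with array quality weights, and none passed in limma without either control library or with the replicate block. Of the 8 cell cycle genes named as fallen, none passed without control replicate 3 (adjusted p 0.109 to 0.388) or control replicate 1 (0.0773 to 0.231).

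Many mitosis genes are known to carry the CCAAT box and the cell cycle homology region TTTGAA in their promoters. Searched on both strands of the same RefSeq promoters, TTTGAA was present in 39 of 55 mitosis genes (70.9%) and 4 of 33 replication genes (12.1%). The same letters were in 9 of 31 fallen genes (29.0%) and 43 of 178 risen genes (24.2%). They were in 14.7% of tested genes with a promoter and in 20.2% of all genes with a promoter. CCAAT was present in 38 of 55 mitosis genes (69.1%), in 20 of 33 replication genes (60.6%) and in 41.1% of all genes with a promoter. The windows below show these letters, in capitals on the strand of the gene, where either element may read as its reverse complement. They are from Kif23 (chr9:61946777-61946821, minus strand), which fell and holds both elements, and Ccnb1 (chr13:100786534-100786600, minus strand), the cyclin B1 gene, which did not pass and holds the CCAAT box in 2 places.
Kif23: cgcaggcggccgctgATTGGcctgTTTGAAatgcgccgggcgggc
Ccnb1: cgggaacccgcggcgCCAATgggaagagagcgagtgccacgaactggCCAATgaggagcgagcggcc

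The largest falls were in genes of red blood cells. Of 12 such markers measured, 5 were tested, 3 of them only because the control libraries reached 1 FPKM, and these 5 fell (median -3.59). Hbb-bs (ENSMUSG00000052305, chromosome 7, 103826534 to 103828096), an adult beta globin gene, had 0.676, 4.76 and 0.934 FPKM in irradiated and 88.7 and 122 FPKM in control skin (log2 fold change -5.31, SE 0.50, adjusted p 0.000834). Hba-a1 (ENSMUSG00000069919, chromosome 11, 32283511 to 32284465), an alpha globin gene, had 1.24, 2.73 and 0.631 FPKM in irradiated libraries, against 48.6 and 63.3 FPKM in control libraries (log2 fold change -4.56, SE 0.41, adjusted p 0.000834). Irradiated replicate 2 held the most globin RNA of the irradiated libraries, and it too lay far below both controls. Hbb-bt and Hba-a2, near-identical copies whose separate values are uncertain, fell by 3.59 and 2.78. Alas2, the heme synthesis gene of red cell precursors, had 0.23, 0.313 and 0.37 FPKM in irradiated and 1.18 and 2.19 FPKM in control skin (log2 fold change -1.02, SE 0.23, adjusted p 0.0434). Summed levels of the list were 2.9, 8.83 and 2.59 FPKM in irradiated libraries and 156 and 210.3 FPKM in control libraries. Without control replicate 3, 3 of the 5 passed, and Hbb-bs and Hba-a1 passed under all 19 alternatives. The amount of blood in each sample is not given in the labels, and its part in these values was not tested. None of 6 platelet markers passed in limma (0 by limma-voom, 3 with an unadjusted p under 0.05). Pf4, platelet factor 4, had 327, 706 and 460.3 FPKM in irradiated libraries, against 244 and 174 FPKM in control libraries, higher without overlap (1.20, adjusted p 0.343). Ppbp (2.01) and Mmrn1 (0.79) were also higher without overlap, while Itgb3 (0.05), Itga2b (-0.08) and Gp1bb (-0.08) overlapped between the groups.

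Among other genes, Alox12e (ENSMUSG00000018907, chromosome 11, 70315610 to 70322628), an epidermal lipoxygenase gene, had 2.26, 1.86 and 1.08 FPKM in irradiated and 14 and 9.77 FPKM in control skin (log2 fold change -2.24, SE 0.47, adjusted p 0.0269). Fcgbp, a mucus protein gene, had 3.69, 3.91 and 2.1 FPKM in irradiated libraries, against 17.3 and 17.5 FPKM in control libraries (log2 fold change -2.15, SE 0.41, adjusted p 0.0149), with nearly equal controls. Clca3a2, of the calcium-activated chloride channel regulator family, had 18.5, 14.2 and 12.7 FPKM in irradiated and 56.2 and 52.3 FPKM in control skin (log2 fold change -1.79, SE 0.42, adjusted p 0.0477). All of these stood severalfold apart between the groups. Pdgfb, a growth factor gene of vessel lining cells and platelets, had 6.34, 6.13 and 7.56 FPKM in irradiated libraries, against 12.6 and 10.2 FPKM in control libraries (log2 fold change -0.69, SE 0.16, adjusted p 0.042). Defb8, a defensin gene, is listed at 0 in all 3 irradiated libraries, against 2.61 and 2.47 FPKM in control libraries, and did not pass (adjusted p 0.0951). Of the 9 genes named as fallen here and among the globins, 3 passed without control replicate 3 (adjusted p 0.023 to 0.569) and 4 without control replicate 1; Alox12e, Fcgbp, Clca3a2 and Pdgfb passed in neither.

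**Figure D4:**
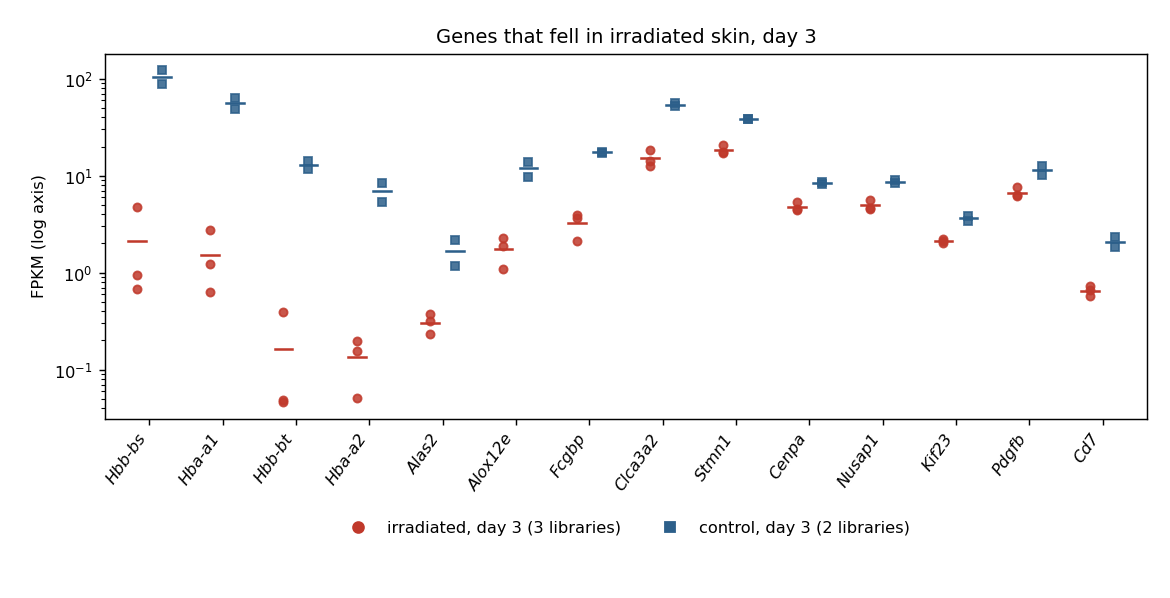
FPKM on a log axis of 14 genes that fell, in the 3 irradiated libraries (circles) and the 2 control libraries (squares) of day 3, with a bar at each group mean. Irradiated values lie below control values in each gene, by a wide gap for the globins and by a narrow one for Cenpa, Nusap1 and Kif23.

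No tested gene of the TGF-β pathway, which the title of the study names, passed. TGF-β ligands bind a type 2 and a type 1 receptor, which phosphorylate SMAD2 and SMAD3; these join SMAD4 and act on genes of matrix and contraction, with SMAD7 as an inhibitor. None of 17 ligand and latent binding protein genes (median 0.03), 24 receptor and SMAD genes (median -0.06) or 25 TGF-β-induced genes (median 0.12) passed in limma, nor did any by limma-voom. An unadjusted p under 0.05 was seen in 1, 2 and 0 genes of these lists. Tgfb1 (ENSMUSG00000002603, chromosome 7, 25687002 to 25705077) had 16.9, 19.3 and 20.2 FPKM in irradiated and 19.7 and 15.5 FPKM in control skin (0.10, SE 0.30, adjusted p 0.933), with overlapping groups. Tgfb2 had 1.86, 2.22 and 1.92 FPKM in irradiated libraries, against 2.13 and 2.22 FPKM in control libraries and Tgfb3 had 5.12, 7.44 and 5.66 FPKM in irradiated and 6.76 and 7.84 FPKM in control skin. Among receptors, Tgfbr1 had 7.92, 8.63 and 8.87 FPKM in irradiated libraries, against 10.7 and 9.63 FPKM in control libraries (-0.24, adjusted p 0.726) and Tgfbr2 had 45.4, 52.9 and 44.9 FPKM in irradiated and 32.3 and 26.2 FPKM in control skin (0.69, adjusted p 0.384); neither pair of groups overlapped, and they stood in opposite directions. The transducer genes Smad2, Smad3 and Smad4 stood at -0.04, -0.23 and 0.02 and the inhibitor gene Smad7 at -0.03, with Smad3 alone of the 4 free of overlap. Of the induced genes, Ctgf, a matrix regulator, had 26.4, 23.4 and 21.7 FPKM in irradiated libraries, against 14.3 and 14.3 FPKM in control libraries (0.69, SE 0.38, adjusted p 0.518). A missed threshold does not show equal levels: the SE of Tgfb1 alone was 0.30 on the log2 scale.

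Of the lists of matrix and keratin genes none had a member that passed in limma or limma-voom; an unadjusted p under 0.05 was seen in 1 proteoglycan gene, 0 collagens and 0 basal and suprabasal keratins. Small leucine-rich proteoglycans, which space collagen fibrils, had a median of 0.65 with 9 of 10 genes higher without overlap. Over all tested genes 16.3% were higher and 26.0% lower without overlap. Dcn, decorin, had 287, 386 and 395 FPKM in irradiated and 209 and 249 FPKM in control skin (0.63, adjusted p 0.701). Collagens had a median of 0.29, and Col3a1 had 618, 927 and 671 FPKM in irradiated libraries, against 679 and 391 FPKM in control libraries, with control replicate 1 inside the irradiated range. The wound keratin gene Krt6a had 2747, 1786 and 2578 FPKM in irradiated and 2826 and 2686 FPKM in control skin, and Krt1, of suprabasal keratinocytes, had 479, 486 and 543 FPKM in irradiated libraries, against 790.2 and 949 FPKM in control libraries (-0.78, adjusted p 0.658). Cholesterol synthesis genes had a median of -0.50, with 17 of 22 lower without overlap. On the same list Ch25h, which makes an antiviral oxysterol, had 9.19, 5.97 and 4.73 FPKM in irradiated and 1.64 and 1.07 FPKM in control skin (1.66, adjusted p 0.0503). No gene of the cholesterol list passed in limma or limma-voom (12 with an unadjusted p under 0.05). Myod1, a muscle regeneration factor gene, had 3.94, 5.78 and 4.51 FPKM in irradiated libraries, against 11.4 and 14.2 FPKM in control libraries (-1.27, adjusted p 0.281).

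Several further lists had no passing member in limma. The counts without overlap below stand beside 16.3% higher and 26.0% lower over all tested genes. Metalloproteinases and their inhibitors, which remodel matrix, had a median of 0.55 over 23 genes, with 14 higher without overlap (2 with an unadjusted p under 0.05). Endothelial and angiogenesis genes had a median of -0.19 over 27, with 13 lower without overlap (6 with an unadjusted p under 0.05), and Vegfa, the main growth factor of vessels, had 23, 20.6 and 30.2 FPKM in irradiated and 30.2 and 20.1 FPKM in control skin. Vegfa thus overlapped between the groups. Sebaceous gland lipid genes had the lowest median of the skin appendage lists, -0.67 over 13 genes (2 with an unadjusted p under 0.05). Among stress genes, Hmox1, which degrades heme, had 308, 438 and 393 FPKM in irradiated libraries, against 246 and 171 FPKM in control libraries (0.87, adjusted p 0.174), and the metallothionein gene Mt1 had 281, 312 and 454 FPKM in irradiated and 169 and 201 FPKM in control skin (0.88, adjusted p 0.531). Neither pair of groups overlapped, and neither gene passed. Serpina3n, an acute phase protease inhibitor gene, had 348, 377 and 473 FPKM in irradiated libraries, against 121 and 154 FPKM in control libraries, without overlap (1.53, adjusted p 0.298). Cdkn2a, the gene of the growth arrest protein p16, had 0.443, 0.466 and 1.11 FPKM in irradiated and 0.726 and 1.21 FPKM in control skin, with overlap (-0.25, adjusted p 0.806). Myh4, a muscle myosin gene, had 204, 324 and 77.6 FPKM in irradiated libraries, against 44.7 and 84.5 FPKM in control libraries, with overlap.

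**Figure D5:**
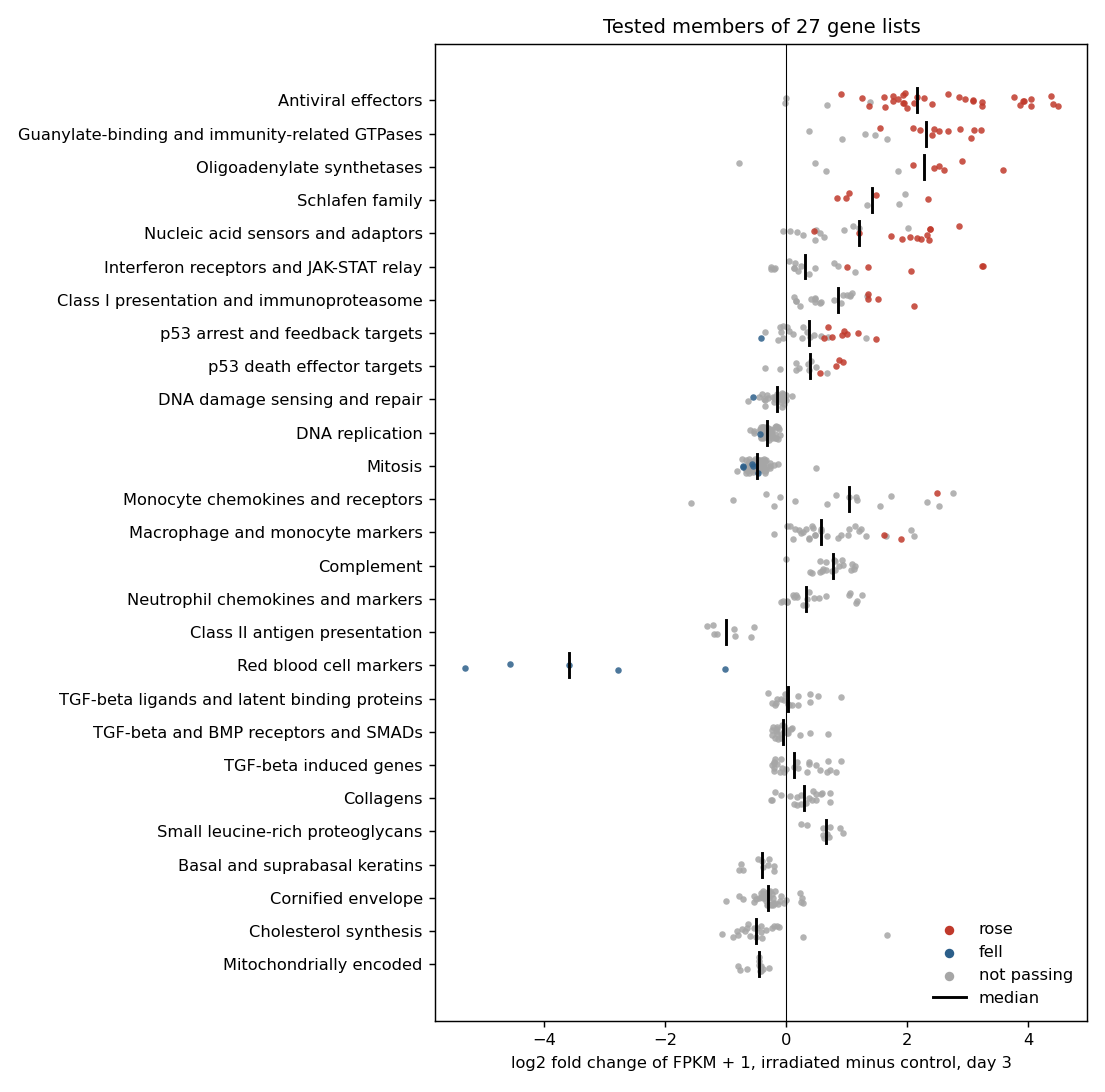
Log2 fold change of FPKM + 1, irradiated minus control at day 3, of each tested member of 27 gene lists; red points rose, blue points fell, grey points did not pass, and black bars mark list medians. The antiviral, GTPase and oligoadenylate synthetase lists have medians furthest to the right and the red blood cell markers furthest to the left, while the 3 TGF-β lists centre near 0.

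The later days used separate irradiated and control libraries, so the day-3 genes could be read in them, and day 3, 6 and 9 values are given side by side. Of the 246 genes that rose at day 3, 236 had a positive change at day 9 and 92 passed there; of all 13890 tested genes 7571 had a positive change at day 9. The 92 are 37.4% of the day-3 genes and 31.9% of the 288 that rose at day 9 (2.07% of tested genes). At day 6, with 2 libraries a group, 233 had a positive change, against 7443 of all tested genes, and 5 passed, 2.03% of the day-3 genes and 26.3% of the 19 that rose at day 6 (0.137% of tested genes). Ifit1 stood at 4.49, 1.52 and 2.80 on days 3, 6 and 9, Irf7 at 3.26, 2.28 and 3.10, and Cdkn1a at 1.01, 0.96 and 1.14. Hbb-bs stood at -5.31, -5.54 and -1.15, and H2-Aa at -1.31, -3.01 and -2.52. The 44 fallen genes shared 8 with the 16 that fell at day 6 (18.2% of the day-3 genes), when 0.115% of tested genes fell. They shared 7 with the 276 that fell at day 9 (15.9% of the day-3 genes and 2.54% of the day-9 genes), when 1.99% fell. When the differences themselves were tested, no gene passed, either for day 3 against day 9 (1981 genes had an unadjusted p under 0.05, 14.3%) or for day 3 against day 6 (1264 genes, 9.1%), and limma-voom gave 0 in both. Hbb-bs had the day-3-minus-day-9 difference -4.16 (adjusted p 0.0882), and Ifit1 had 1.69 (adjusted p 0.356). No gene is therefore called particular to day 3. The counts of such genes changed with the processing, as given with the alternatives.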

How the data were processed

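RNA of whole mouse skin was read as total RNA from TRIzol extracts in Smart-Seq2 libraries, sequenced in pairs on an Illumina NovaSeq instrument, per the labels' protocols. HISAT2 2.2.1 and the build mm10 are named in the submitters' processing notes; for the counting tool, its strand setting and the annotation, nothing is given in the sources used here. The authors deposited FPKM values in a single table, with 34140 genes and 17 libraries. FPKM depends on the gene length used and on a few abundant genes, and without a stated strand setting reads of a gene and its antisense partner cannot be told apart.

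Columns were assigned to groups by their names. FPKM values were taken to log2(FPKM + 1), genes of at least 1 FPKM in at least 2 of the 5 day-3 libraries were kept, and limma 3.58.1 with a mean-variance trend (R 4.3.3) was fitted to 7 group means over the 17 libraries. P-values were adjusted by Benjamini and Hochberg over 13890 genes, with 0.05 as the threshold, and differences between days were tested as contrasts in the same fit. Because FPKM steps reflect whole fragments, fragments were recovered with GENCODE M21 lengths for 31473 genes and, for 2664 others, with a length searched to give whole numbers: 99.999% of non-zero values came out within 0.01 of a whole number, the libraries held 25440773 to 30797408 fragments, and limma-voom on these called 269 genes, as an alternative added after the data were seen. Arithmetic and figures used Python 3.11.15 with pandas 2.3.3, numpy 2.4.6 and matplotlib 3.10.9; tables were read with version 1.17.8 of data.table. The limma fit was first checked on simulated data with independent noise in each gene and library. That check therefore does not cover a shift shared by many genes of a library. Promoters came from RefSeq, build GRCm38.p6; 178 of the 246 risen and 31 of the 44 fallen genes had one. Gene positions are those of GENCODE M21 on the same build.

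Members, gene lists and tests were chosen with earlier results of these data known. Named genes are the 15 highest and 15 lowest passing protein-coding genes without overlap and with a mean of at least 5 FPKM in the higher group, up to 6 passing members of each list with the largest changes, fixed anchors of each list, up to 6 noncoding RNA genes and up to 6 genes listed at 0 in 1 group; some were left out for length. Bst2, Ifi27l2a, Eif2ak2, Trim25, Ifitm3, Slfn4, Zmat3, Polk, Polh, Klrd1 and Ch25h, the genes of chromosomal clusters and those of the closing observations lie outside this rule and were picked with their values in view. Alternatives covered the pseudocount, the filter, scaling, the libraries fitted, array quality weights, a replicate block and leaving out each library. The number of libraries, 3 against 2, limits precision, and the part of their depth was not tested.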

Additional observations from a re-analysis of the deposited data

How the results depend on the processing

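The day-3 count of 290 genes (246 rose, 44 fell) depended on the fit and on single libraries. Leaving out 1 day-3 library at a time gave 30 genes (without control replicate 3) to 244 (without irradiated replicate 3). It was 569 (410 rose, 159 fell) in the 5 day-3 libraries alone, 1265 (653 rose, 612 fell, so 51.6% rose against 84.8%) with array quality weights, and 165 when a change of at least 1 was also asked. The replicate block gave 88 (84 rose, 4 fell). Within a day, deviations of libraries with the same number had r from -0.159 to 0.339, not above 0.1 in every pair, so the numbers were not taken to pair the libraries. The share that rose was 72.1% in the 5 libraries alone and 95.5% with the block. Pseudocounts of 0.1 and 5 gave 251 and 344, a minimum of 5 FPKM 249, quantile normalization 380, and limma-voom on recovered fragments 269. For the difference between days 3 and 9 the count of 0 became 2516 with array quality weights and 16 without the low-value filter, and 0 to 1 when a library was left out (1 without irradiated day-3 replicate 2). For days 3 and 6 it became 15 with no filter, 39 with the replicate block, and 0 to 68 when a library was left out (68 without irradiated day-6 replicate 3). No named gene that passed at day 3 changed direction under the alternatives run. Named genes that did not pass changed sign in 79 pairs of gene and alternative. Under all 19 alternatives 16 of the 290 day-3 genes passed. The causes were not tested. Depth was not varied, so its part in these counts was not tested.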

Other observations

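Genes outside the lists were looked at after their values were seen, so what follows is a description. Daxx, a histone chaperone found in nuclear bodies, had 44.1, 37.3 and 29.6 FPKM in irradiated and 11.8 and 10.1 FPKM in control skin (log2 fold change 1.66, SE 0.19, adjusted p 0.00162), and Pml, the scaffold of such bodies, had 23, 22.7 and 16.5 FPKM in irradiated libraries, against 6.9 and 5.2 FPKM in control libraries (log2 fold change 1.62, SE 0.24, adjusted p 0.00405). Sp100 rose by 1.69 together with its relatives Sp110 and Sp140, so all 3 tested genes of this family rose. Of 41 tested Trim genes, most of them ubiquitin ligases, 11 rose and none fell, although the family median was 0.03. Over all tested genes 1.77% rose. Trim21, an intracellular antibody receptor, had 13.6, 12.7 and 9.56 FPKM in irradiated and 3.04 and 2.99 FPKM in control skin (log2 fold change 1.68, SE 0.19, adjusted p 0.00126). Of 12 poly(ADP-ribose) polymerase genes 5 rose, and the 5 were Parp9, Parp10, Parp11, Parp12 and Parp14. Parp12 had 48.7, 47.4 and 32.9 FPKM in irradiated libraries, against 12.3 and 8.14 FPKM in control libraries (log2 fold change 1.98, SE 0.30, adjusted p 0.00438). Znfx1, a helicase-like sensor of viral RNA, had 31.3, 33.1 and 23.9 FPKM in irradiated and 7.05 and 5.55 FPKM in control skin (log2 fold change 2.05, SE 0.25, adjusted p 0.00192). Mlkl, which breaks the cell membrane in necroptosis, had 34.4, 29.6 and 24.2 FPKM in irradiated libraries, against 12.7 and 9.43 FPKM in control libraries (log2 fold change 1.33, SE 0.24, adjusted p 0.00934). Il10, a cytokine gene that limits inflammation, had 6.87, 5.97 and 5.11 FPKM in irradiated and 1.61 and 0.721 FPKM in control skin (log2 fold change 1.71, SE 0.27, adjusted p 0.00508). All irradiated libraries lay above both controls in each of these genes.

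Mgmt, the enzyme that removes alkyl groups from guanine in DNA, had 4.48, 5.34 and 5.49 FPKM in irradiated libraries, against 1.43 and 1.72 FPKM in control libraries (log2 fold change 1.24, SE 0.12, adjusted p 0.000834), and Rnf169, a gene of the double-strand break response, had 6.7, 6.76 and 7.62 FPKM in irradiated and 4.02 and 3.91 FPKM in control skin (log2 fold change 0.69, SE 0.08, adjusted p 0.00194). Bcl2l1, which encodes the survival protein BCL-XL, rose by 0.61 (adjusted p 0.0348). On the lower side, the histone variant gene H2afz had 115, 109.8 and 124 FPKM in irradiated libraries, against 169 and 177 FPKM in control libraries (log2 fold change -0.57, SE 0.12, adjusted p 0.023), and its relative H2afv fell by 0.61 (adjusted p 0.0133). Mad2l1, of the spindle checkpoint, fell by 0.50, the chromatin protein gene Hmgb1 by 0.43, and Slbp, which binds histone mRNA, by 0.32. Among noncoding RNAs, Gm20559 rose by 1.85 and 4930430E12Rik, annotated as antisense, by 1.58; without a stated strand setting the second cannot be told apart from RNA of the gene opposite. Of the 17 genes named here other than these 2 RNAs, Sp110, Sp140 and the unvalued Parp genes, 6 passed without control replicate 3 (adjusted p 0.023 to 0.476) and 10 without control replicate 1. Mgmt, Daxx, Znfx1 and Trim30c were among the 16 genes that passed under all 19 alternatives, and Trim30c had 7.93, 9.11 and 6.19 FPKM in irradiated and 1.07 and 0.904 FPKM in control skin (log2 fold change 2.12, SE 0.26, adjusted p 0.00204).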
